A study of Homo sapiens with 18 samples.

Results

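The genes of the lysosome and of its proton pump, the vacuolar ATPase (V-ATPase), were followed through 6 ways of growing Saos-2 cells, an established human osteosarcoma (OS) line that the labels spell Soas-2. A row of the expression table was a member when its KEGG annotation held the Lysosome pathway or when its symbol began with ATP6V. Symbols ending in P and a number, SLC11A2 and symbols beginning with ABC were left out. This gave 138 of the 50119 genes listed: 120 of the 123 Lysosome pathway rows, and 18 rows taken by the ATP6V name alone. No expression value entered the choice. The members were sorted by role into 18 proteases, 17 glycosidases, 8 sulfatases (with SUMF1, which activates them), 9 lipid hydrolases or activators, 4 nucleases or phosphatases, 22 membrane proteins or transporters, 9 sorting receptors or tagging enzymes, 23 clathrin or adaptor subunits, 11 rows of the V0 sector of the V-ATPase or its accessory proteins, 13 of its V1 sector, and 4 other rows with an ATP6V name.

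RNA was sequenced from 18 libraries, 3 per group and all labelled WT. D-2 were cells in 2D culture for 14 days, D-3 were cells in Matrigel for 14 days, and DP-3 were cells printed in a bioink of methacrylated gelatin and alginate and kept for 14 days, with a further DP-3 set taken on day 1. FIT was tumor taken fresh from female BALB/c nude mice, in which Saos-2 cells in Matrigel had been placed under the skin and left until week 2. IT was tissue of such tumors kept for 14 days on Matrigel, and since tumors were divided between these uses, FIT and IT may share animals. Nude mice lack mature T cells but keep macrophages and other myeloid cells, so host cells may be present in FIT and IT. Nothing in the labels says whether the 3 libraries of a group came from separate cultures or animals, so p-values measure the spread between these libraries.

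A lysosome is the compartment in which a cell breaks down protein, glycan, lipid and nucleic acid. Its hydrolases are made in the endoplasmic reticulum, tagged with mannose 6-phosphate, carried by receptors in clathrin-coated vesicles and released as the V-ATPase lowers the pH. The V1 sector of the pump hydrolyses ATP in the cytosol and the V0 sector moves protons through the membrane. In bone, osteoclasts turn the same pump and enzymes outwards to dissolve mineral and matrix. The factors TFEB, TFE3 and MITF are known to activate many lysosomal genes through short promoter letters built on CACGTG.

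Those letters were looked for in the RefSeq promoters (GRCh38.p14, 250 bases before to 50 after the start site) of the 102 members that had an entry. Both strands were searched, and the forms overlap, since TCACGTGA and GTCACGTG both hold CACGTG. TCACGTGA, which reads the same on both strands, was in 12 member promoters (11.8%) against 1.04% of all 27305 promoters. GTCACGTG or its complement CACGTGAC was in 18 (17.6%) against 2.53%, and CACGTG was in 22 (21.6%) against 7.43%. By role, TCACGTGA was in 3 of 8 promoters of sorting genes, 4 of 16 of membrane proteins, 3 of 39 of hydrolases and activators, 2 of 17 of V-ATPase subunits and 0 of 19 of clathrin and adaptor subunits. The match is one of letters and does not show that a factor binds. The 4 promoters printed here are of a glycosidase and a protease that were DEGs (differentially expressed genes), of a V-ATPase subunit with the same letters that was a DEG in no comparison, and of NPC1, a DEG without the letters. Each is given 5′ to 3′ on the gene's strand, with TCACGTGA, GTCACGTG and CACGTGAC in capitals.
GAA, chr17:80101331-80101630, plus strand: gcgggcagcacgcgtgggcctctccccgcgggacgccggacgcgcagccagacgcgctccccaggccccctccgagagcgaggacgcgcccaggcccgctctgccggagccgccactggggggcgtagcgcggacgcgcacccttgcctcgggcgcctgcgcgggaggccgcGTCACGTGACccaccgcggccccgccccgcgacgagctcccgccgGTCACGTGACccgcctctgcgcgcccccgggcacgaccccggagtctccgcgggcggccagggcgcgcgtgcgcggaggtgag
CTSD, chr11:1763878-1764177, minus strand: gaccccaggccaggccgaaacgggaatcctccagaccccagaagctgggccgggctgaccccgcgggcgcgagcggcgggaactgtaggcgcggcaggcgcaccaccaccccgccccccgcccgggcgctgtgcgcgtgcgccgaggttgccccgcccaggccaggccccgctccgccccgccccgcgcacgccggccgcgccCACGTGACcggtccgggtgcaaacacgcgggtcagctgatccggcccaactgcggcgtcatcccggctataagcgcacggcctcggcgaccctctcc
ATP6V0D1, chr16:67481108-67481407, minus strand: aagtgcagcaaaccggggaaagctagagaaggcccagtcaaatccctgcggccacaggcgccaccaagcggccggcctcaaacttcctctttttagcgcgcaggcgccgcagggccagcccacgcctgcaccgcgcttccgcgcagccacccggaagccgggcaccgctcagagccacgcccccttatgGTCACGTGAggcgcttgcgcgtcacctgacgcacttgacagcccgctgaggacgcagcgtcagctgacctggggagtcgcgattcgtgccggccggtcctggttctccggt
NPC1, chr18:23586457-23586756, minus strand: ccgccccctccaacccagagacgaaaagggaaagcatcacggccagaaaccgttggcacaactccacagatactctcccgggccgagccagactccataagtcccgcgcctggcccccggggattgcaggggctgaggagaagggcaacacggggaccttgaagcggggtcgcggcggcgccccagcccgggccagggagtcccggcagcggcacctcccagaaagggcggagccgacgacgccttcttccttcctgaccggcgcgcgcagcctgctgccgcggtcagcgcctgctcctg
The GAA promoter held CACGTG at 2 places, the first match beginning 78 bases before the start site (position -78). CTSD and ATP6V0D1 held it at 1 place each, beginning at -47 and -61, and NPC1 at 0. Among members with a promoter entry, the 18 with GTCACGTG had a median log2 fold change of 0.31 in D-3 against FIT and the 74 tested members without it 0.16, while in D-3 against D-2 the medians were 0.04 for the 18 and 0.14 for 72. In the latter comparison 2 of the 18 and 7 of the 72 were DEGs in either direction. Of all genes tested there, 14.6% were upregulated and 3.95% downregulated.

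The libraries held 23721666 (FIT replicate 3) to 79082786 (D-2 replicate 3) estimated counts, and mitochondrially encoded genes took 9.85% to 34.0% of FPKM, the most in DP-3 replicate 3. Among 10 osteoblast markers, SP7, ALPL, IBSP and PTH1R were at most 0.148 FPKM in every library although Saos-2 is known for alkaline phosphatase, whereas COL1A1, COL1A2 and RUNX2 were read in all. FPKM are scaled to a library's total and a gene's length, and TMM-scaled counts to the bulk of its genes. The median log2 change of all genes tested was -0.06 on TMM-scaled counts and -0.29 on log2(FPKM + 0.1) for DP-3 against DP-3 day 1, 0.11 and 0.30 for D-3 against D-2, and -0.09 and -0.19 for D-2 against FIT. Levels below are FPKM, and fold changes and tests are on the scaled counts.

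The members were expressed broadly. Of the 138, 98 were at or above 1 FPKM in every library and 39 at or above 10. A further 12 stayed between 0.1 and 1 FPKM at their highest, among them LAMP3, CTSV, CTSW and NAPSA. ATP6V1B1, GALC, PSAPL1, DNASE2B, CTSE and CTSF stayed below 0.1 FPKM in every library. The summed FPKM of all members was 2106 ± 90.6 in FIT (SD, n = 3), 2159 ± 47.9 in D-2 and 2315 ± 145 in DP-3, against 2937 ± 551 in IT, 3021 ± 36.3 in D-3 and 2914 ± 79.1 in DP-3 day 1. Every D-3 and DP-3 day 1 library lay above all 9 FIT, D-2 and DP-3 libraries, whereas IT spread from 2399 to 3500. As bulk RNA, these sums cannot tell more cells of a kind from more RNA per cell.

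The sums differed between groups in the enzymes more than in the pump. Protease rows summed to 325 ± 19.4 FPKM in FIT, 368 ± 5.3 in D-2 and 402 ± 54.3 in DP-3, against 546 ± 143 in IT, 604 ± 41.2 in D-3 and 609.7 ± 73.2 in DP-3 day 1. Lipid hydrolases and activators summed to 308 ± 14.9 FPKM in FIT, 245.2 to 252.6 in the D-2 libraries and 269 ± 41.1 in DP-3, and to 548 ± 159, 542 ± 55.3 and 480.1 ± 4.8 in IT, D-3 and DP-3 day 1. PSAP made that contrast, since without it the lipid sum was 68.7 ± 4.34 FPKM in FIT, 86.4 ± 1.6 in D-2, 88.4 ± 7.57 in DP-3, 90 ± 16.9 in IT, 91.9 ± 2.74 in D-3 and 94.7 ± 3.09 in DP-3 day 1. The V0 sector ran from 186 ± 25.4 FPKM in FIT to 230.5 ± 9.05 in DP-3 day 1, the V1 sector from 163 ± 20.8 in FIT to 205 ± 15.4 in D-3, and clathrin and adaptors from 294 ± 18.6 in FIT to 336 ± 26.7 in DP-3. A ratio taken within a library does not depend on the scaling between libraries. Hydrolases and activators summed to 2.48 ± 0.335 times the V-ATPase rows in FIT, 2.06 ± 0.042 in D-2 and 2.27 ± 0.249 in DP-3, against 3.42 ± 0.661 in IT, 3.61 ± 0.345 in D-3 and 3.28 ± 0.182 in DP-3 day 1. PSAP alone was 6.63% to 17.3% of the members' sum, and without it the ratios were 1.79 ± 0.226, 1.65 ± 0.033, 1.81 ± 0.163, 2.3 ± 0.378, 2.5 ± 0.132 and 2.39 ± 0.18 in the same order of groups. FIT replicate 3 (2.84) lay above IT replicate 2 (2.7) in the first ratio, and D-3 and DP-3 day 1 overlapped neither D-2 nor DP-3 in both.

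**Figure D1:**
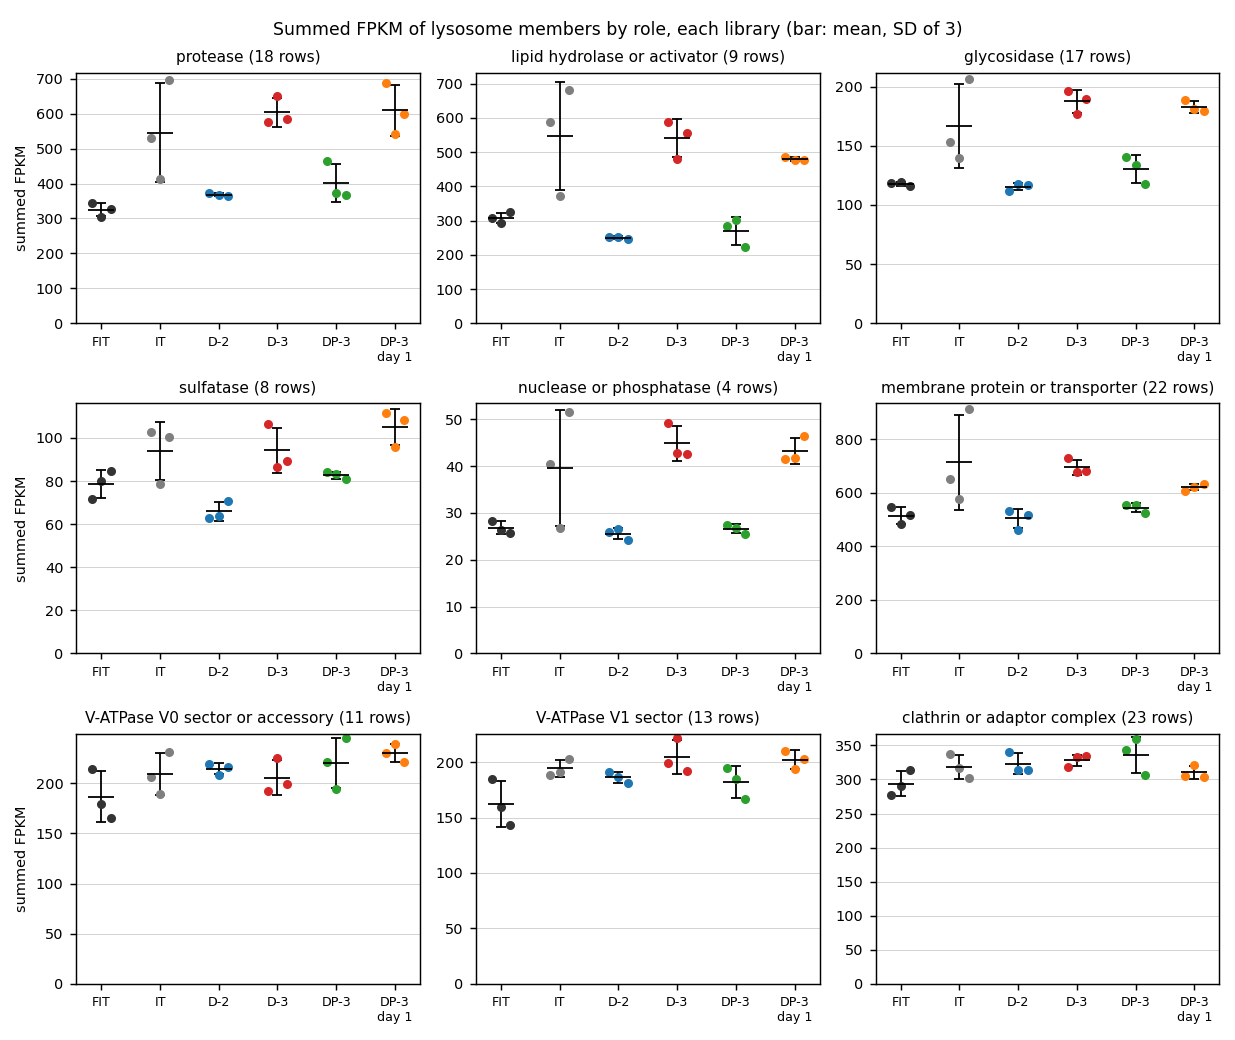
Summed FPKM (vertical axes, from 0) of the members of 9 roles in each library, with groups along the horizontal axes; points are libraries, dashes with bars the mean and SD of 3. D-3 and DP-3 day 1 stand above D-2 and DP-3 for proteases, glycosidases and, through PSAP, lipid hydrolases or activators, while the V-ATPase and clathrin panels are nearly level.

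The order of group means was counted after the values had been seen, as a description. Among the 98 members at or above 1 FPKM in every library, IT, D-3 and DP-3 day 1 were the 3 highest groups for 31 (31.6%), against 14% of all 9670 genes at that level. The share was 18 of 38 for hydrolases and activators, 6 of 17 for membrane proteins, 4 of 9 for sorting genes, 2 of 17 for clathrin and adaptors and 1 of 16 for the V-ATPase. The lowest mean was in FIT for 40 of the 98 members and in D-2 for 33, against 1973 and 2246 of all 9670 genes.

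Groups were compared in pairs, each on its own 6 libraries, with edgeR's quasi-likelihood test and Benjamini-Hochberg adjustment over all genes tested. DEGs had an adjusted p below 0.05 and at least a 2-fold change. In D-2 against FIT, 123 members were tested, of which 6 were upregulated (4.88%, against 3.83% of all genes tested) and 5 downregulated (4.07%, against 10.8%). Of the 6, CTSV entered only through D-2, being below the test's minimum of 0.1 FPKM in every FIT library. At any fold, 35 were higher (28.5%, against 16%) and 14 lower (11.4%, against 14.9%), but on log2(FPKM + 0.1) 19 were higher (15.4%, against 11.6%) and 20 lower (16.3%, against 19.3%). There 4 DEGs were up (against 2.77%) and 9 down (against 13.3%). On scaled counts without D-2 replicate 1, 7 members were DEGs, beside 478 up and 1281 down of all 18988 genes. With a minimum of 1 FPKM, 3 of 107 members were upregulated (2.8%, against 2.99%) and 7 downregulated (6.54%, against 10.3%). The comparisons with FIT share its 3 libraries.

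In D-3 against FIT, 14 of 127 members were upregulated (11%, against 4.29%) and 0 downregulated (against 2.17%). Of the 14, CTSV and ATP6V0E2-AS1 were below the 0.1 FPKM minimum in every FIT library and entered only through D-3. At any fold, 21 were higher (16.5%, against 5.11%) and 1 lower (0.787%, against 3.17%). The downregulated count was also 0 on log2(FPKM + 0.1) with limma (against 2.13% of all genes) and 1 with DESeq2 (against 922 of all 21676 genes). In either direction, 50 members (39.4%) had an unadjusted p below 0.05, against 5402 of all 21676 genes. Fewer DEGs were found without D-3 replicate 1 (5), D-3 replicate 3 (4) or FIT replicate 1 (8). In DP-3 against FIT, 5 of 125 were upregulated (4%, against 1.66%) and 1 downregulated (0.8%, against 3.16%), with 21 higher (16.8%, against 4.21%) and 5 lower (4%, against 4.19%) at any fold. Of the upregulated, ATP6V0E2-AS1 entered only through DP-3, being below the 0.1 FPKM minimum in every FIT library. On log2(FPKM + 0.1) 6 were higher (4.8%, against 2.21%) and 5 lower (4%, against 5.17%), and 3 DEGs were up (against 1.14%) and 3 down (against 4.13%). Without DP-3 replicate 1, 1 member was higher and 0 lower at any fold. The number of DEGs was 1, 3 and 2 without DP-3 replicate 1, 2 and 3, 2 without FIT replicate 1 or 2, and 10 without FIT replicate 3. With a minimum of 1 FPKM, 2 of 107 members were upregulated (1.87%, against 1.7%) and 3 downregulated (2.8%, against 4.91%).

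In D-3 against D-2, 11 of 124 members were upregulated (8.87%, against 14.6%) and 3 downregulated (2.42%, against 3.95%). At any fold 29 were higher (23.4%, against 19.2%) and 20 lower (16.1%, against 16.3%), whereas on log2(FPKM + 0.1) 52 were higher (41.9%, against 28.2%) and 3 lower (2.42%, against 8.74%). On that scale 20 DEGs were up (against 19.6%) and 2 down (against 1.92%). The members differed by role. Of 49 tested hydrolases and activators, 18 were higher and 5 lower in D-3 at adjusted p below 0.05, with a median log2 change of 0.39, beside 0.11 for all genes, and on log2(FPKM + 0.1) 31 were higher and 2 lower. Of 21 clathrin and adaptor subunits, 2 were higher and 6 lower, with a median of -0.29 that was -0.04 on log2(FPKM + 0.1), where 5 were higher and 0 lower. The V-ATPase had 2 higher and 3 lower of 21, with a median of -0.08 that turned to 0.16 on log2(FPKM + 0.1), where 6 were higher and 0 lower. On that scale 28.2% of all genes were higher and 8.74% lower, with a median of 0.30.

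Between the days of the printed tissue, DP-3 against DP-3 day 1, 0 of 127 members were upregulated (against 1.81%) and 10 downregulated (7.87%, against 5.76%). At any fold 14 were higher (11%, against 12.2%) and 32 lower (25.2%, against 9.91%), whereas on log2(FPKM + 0.1) 1 was higher (0.787%, against 4.57%) and 42 lower (33.1%, against 18.8%). Of the 10, ATP6V1C2, SLC11A1 and AP3B2 were below the 0.1 FPKM minimum in every DP-3 library and could enter the test only through day 1. With a minimum of 1 FPKM, 6 of 111 members were downregulated (5.41%, against 5.61%). The upregulated count was also 0 with DESeq2, against 479 of all 20774 genes. It was 0 with limma on log2(FPKM + 0.1) and log2(FPKM + 1) too, against only 161 and 68 of all genes. An unadjusted p below 0.05 in either direction was found for 61 members (48%), against 7446 of all 20774 genes. There were 5 and 4 DEGs without DP-3 replicate 1 and 2, and 4, 4 and 6 without DP-3 day 1 replicate 1, 2 and 3. All of them were downregulated, beside 1014 and 1084, then 499, 483 and 481 of all genes in the same order. With no library left out, 1196 of all genes were downregulated. The roles parted here too. Of 49 hydrolases and activators 18 were lower and 3 higher on day 14, with a median of -0.23, beside -0.06 for all genes, and on log2(FPKM + 0.1) 26 were lower and 1 higher. Of 22 clathrin and adaptor subunits 8 were higher and 2 lower, with a median of 0.30 that was 0.01 on log2(FPKM + 0.1), where 0 were higher and 2 lower. In DP-3 against D-2, both of day 14, 1 of 124 members was upregulated (0.806%, against 0.722%) and 0 downregulated (against 0.318%), with 2 higher (1.61%, against 1.36%) and 1 lower (0.806%, against 0.992%) at any fold. With DESeq2 the downregulated count was also 0, against 168 of all 18549 genes. An unadjusted p below 0.05 in either direction was found for 26 members (21%), against 4210 of all 18549 genes.

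**Figure D2:**
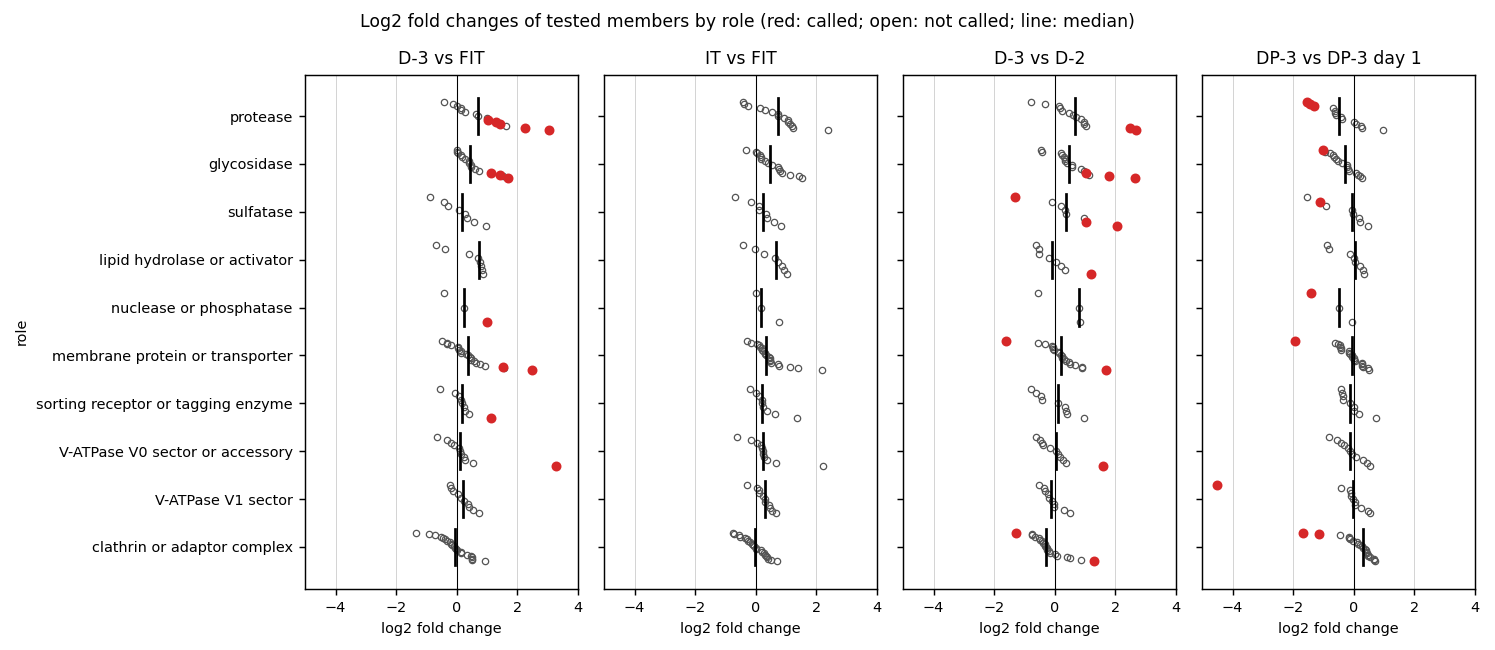
Log2 fold change (horizontal axes) of each tested member by role (vertical axis) in 4 comparisons; red points are DEGs, open points are not, and black lines are medians. In D-3 against D-2 the protease and glycosidase medians lie right of 0 and the clathrin or adaptor median left of it, and in DP-3 against DP-3 day 1 the sides are exchanged; on log2(FPKM + 0.1) the clathrin or adaptor medians are -0.04 and 0.01.

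Proteases were the role with the most DEGs in D-3 against FIT, 5 of 15 tested, all upregulated, against 4.29% of all genes. CTSV was among the 5 and entered the test only through D-3. CTSD, an aspartic protease that is among the most abundant in lysosomes, stood at 76.1, 89.8 and 83 FPKM in FIT, 142, 96 and 126 in IT, 92.5, 93.9 and 90.9 in D-2, 166, 90.5 and 129.9 in DP-3, 298, 190.2 and 232 in DP-3 day 1 and 178, 293 and 171 in D-3. Its D-3 libraries all lay above FIT (log2 fold change 1.31 ± 0.24, adjusted p = 0.0184), and the call was lost without D-3 replicate 3 or FIT replicate 1 (highest adjusted p 0.0621). CTSL, a cysteine protease that cuts other proteins endoproteolytically, had 61, 60.5 and 43.7 FPKM in FIT, 134, 97.9 and 145 in IT, 91, 90.3 and 88 in D-2, 90.05, 90.03 and 75.8 in DP-3, 98.6, 95.1 and 99 in DP-3 day 1 and 121, 123 and 113 in D-3. Every other library lay above the 3 FIT libraries. D-3 was a DEG (1.05 ± 0.18, adjusted p = 0.0158), lost without D-3 replicates 1 and 3 or FIT replicate 3 (highest adjusted p 0.0649), in the last of these by fold alone (0.88). In D-2 its difference stayed below 2-fold (0.85 ± 0.15, adjusted p = 0.00707).

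CTSO, a cysteine protease of low abundance, had 0.18, 0.482 and 0.324 FPKM in FIT, 0.85, 2.4 and 2.08 in IT, 0.174, 0.227 and 0.255 in D-2, 0.294, 0.418 and 0.309 in DP-3, 0.708, 1.25 and 1.39 in DP-3 day 1 and 1.97, 1.18 and 1.91 in D-3. It was higher in D-3 than in D-2 without overlap (2.68 ± 0.33, adjusted p = 0.00246), a call kept in all 6 fits that left out a library. Against FIT the D-3 value was 2.26 ± 0.49, adjusted p = 0.0303, lost without D-3 replicates 1 and 3 or FIT replicates 1 and 3 (highest adjusted p 0.117). It was also lower in DP-3 than on day 1 (-1.45 ± 0.34, adjusted p = 0.0236), lost without DP-3 replicate 1 or DP-3 day 1 replicates 2 and 3 (highest adjusted p 0.0842). CTSV, a close relative of CTSL, was below 1 FPKM in all groups, with 0.0736, 0.0612 and 0.0895 FPKM in FIT, 0.384, 0.224 and 0.288 in D-2 and 0.627, 0.604 and 0.731 in D-3. It was upregulated in D-2 (2.12 ± 0.40, adjusted p = 0.00902) and then in D-3 (3.04 ± 0.42, adjusted p = 0.0073), but all 3 FIT libraries were below the 0.1 FPKM minimum, so that it entered these tests only through its higher group. CTSH, an aminopeptidase, had 0.952, 1.06 and 1.22 FPKM in FIT, 2.03, 2.15 and 2.34 in D-2, 4.23, 2.06 and 2.92 in D-3 and 2.9, 3.12 and 2.93 in DP-3 day 1. It rose in D-2 (1.15 ± 0.18, adjusted p = 0.00481) and in D-3 (1.44 ± 0.30, adjusted p = 0.0283), the latter call being lost without D-3 replicates 1 and 3 or FIT replicates 1 and 2 (highest adjusted p 0.106).

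CTSK and CTSS were each downregulated in a comparison. CTSK, the collagen-cutting protease of osteoclasts, was low at 1.11, 0.782 and 0.733 FPKM in FIT, 0.116, 0.408 and 0.314 in D-2, 0.303, 0.42 and 0.197 in DP-3 and 0.781, 0.855 and 1.13 in DP-3 day 1. It was downregulated in DP-3 against day 1 (-1.33 ± 0.38, adjusted p = 0.0442), lost without DP-3 replicates 1 and 3 or DP-3 day 1 replicates 1, 2 and 3 (highest adjusted p 0.139). CTSS, a protease of antigen-presenting cells, had 5.79, 3.55 and 2.09 FPKM in FIT, 1.5, 1.41 and 1.74 in D-2, 2, 2.1 and 1.45 in DP-3 and 2.68, 4.34 and 3.91 in D-3. The D-2 libraries were all below FIT (-1.14 ± 0.35, adjusted p = 0.0434), and the call was lost without D-2 replicates 1, 2 and 3 or FIT replicates 1 and 2 (highest adjusted p 0.124). NAPSA, an aspartic protease, was at 0.0445, 0.0483 and 0.136 FPKM in D-2, 0.18, 0.161 and 0.0944 in DP-3, 0.676, 0.506 and 0.385 in DP-3 day 1 and 0.672, 0.487 and 0.478 in D-3. It was higher in D-3 than in D-2 (2.50 ± 0.49, adjusted p = 0.00931) and lower in DP-3 than on day 1 (-1.54 ± 0.37, adjusted p = 0.0258), the second call being lost without DP-3 replicate 2 or DP-3 day 1 replicates 1 and 2 (highest adjusted p 0.0944). The row overlaps NR1H2 on the opposite strand over 7311 bases. CTSB, the cysteine protease with the highest mean in IT, ranged over 64.3 to 93.5 FPKM in FIT, 115 to 283 in IT, 59 to 72.4 in D-2, 61.2 to 75.5 in DP-3, 101 to 119 in DP-3 day 1 and 91.2 to 149.9 in D-3, and CTSZ over 37.3 to 62.9 FPKM in FIT, 35.2 to 48.1 in IT, 57.8 to 59.9 in D-2, 41.8 to 64 in DP-3, 61 to 68.8 in DP-3 day 1 and 49 to 61.5 in D-3. LGMN, which cuts after asparagine and activates cathepsins, was below 2-fold in D-3 against FIT (0.99 ± 0.21, adjusted p = 0.0268) and lower in DP-3 than on day 1 (-0.59 ± 0.10, adjusted p = 0.00949). TPP1, a tripeptidyl peptidase, and CTSA, which protects lysosomal sialidase, were also lower in DP-3 than on day 1 at under 2-fold (-0.67 ± 0.19, adjusted p = 0.0449 and -0.38 ± 0.093, adjusted p = 0.0273).

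Among the glycosidases GAA, the enzyme that digests glycogen in lysosomes, separated IT, D-3 and DP-3 day 1 from the other groups. It stood at 6.28, 7.1 and 7.86 FPKM in FIT, 14.5, 15.7 and 26.8 in IT, 5.91, 5.02 and 6.46 in D-2, 7.09, 6.8 and 8.93 in DP-3, 19.1, 15.5 and 18.5 in DP-3 day 1 and 27.9, 17.7 and 25.9 in D-3. The 9 libraries of IT, D-3 and DP-3 day 1 were all above the other 9. GAA was upregulated in D-3 against FIT (1.69 ± 0.20, adjusted p = 0.00479) and against D-2 (1.79 ± 0.19, adjusted p = 0.00192), both kept in all 6 fits with a library left out. In DP-3 against day 1 the decrease was under 2-fold (-0.94 ± 0.16, adjusted p = 0.00777).

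MANBA, which takes mannose off glycoprotein chains, had 0.968, 0.682 and 0.968 FPKM in FIT, 1.01, 0.841 and 1.13 in D-2, 2.92, 1.94 and 2.47 in D-3 and 2.2, 2.11 and 1.74 in DP-3 day 1 and rose in D-3 against FIT (1.43 ± 0.23, adjusted p = 0.0117), lost without D-3 replicates 1 and 3 (highest adjusted p 0.0604). Against D-2 its D-3 value was 1.04 ± 0.19, adjusted p = 0.00728, lost without D-3 replicate 1 or D-2 replicate 2 by fold alone (log2 0.94 and 0.94, adjusted p at most 0.0302). FUCA1, which removes fucose, was lower in DP-3 (0.884 to 0.977 FPKM) than on day 1 (1.79 to 2.81), with -1.03 ± 0.25, adjusted p = 0.0265, lost without DP-3 replicates 1 and 2 or DP-3 day 1 replicates 1 and 2 (highest adjusted p 0.0978). GLB1, GLA, GUSB and NEU1, the enzymes of galactosides, globosides, glucuronides and sialic acid, were DEGs in no comparison. GUSB, IDS and CTSL are among 13 members with pseudogene rows in the same table, so that how reads of near copies were divided is uncertain.

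Among enzymes of heparan and dermatan sulfate breakdown, IDUA, SGSH and ARSG were low in D-2. IDUA, the iduronidase, had 0.914, 1.02 and 1.07 FPKM in FIT, 1.36, 0.577 and 1.13 in IT, 0.166, 0.0677 and 0.181 in D-2, 0.629, 0.506 and 0.432 in DP-3, 0.951, 0.932 and 1.16 in DP-3 day 1 and 1.07, 1.21 and 0.923 in D-3. The D-2 libraries lay below all other libraries. IDUA was downregulated in D-2 against FIT (-2.65 ± 0.41, adjusted p = 0.00477) and upregulated in D-3 against D-2 (2.64 ± 0.40, adjusted p = 0.00404), both kept in all 6 fits. The IDUA row overlaps SLC26A1 on the opposite strand over 6444 bases, and the sources used here do not say whether counting used strand. SGSH, a heparan sulfamidase, had 4.94, 5.94 and 5.16 FPKM in FIT, 5.47, 3.96 and 8.1 in IT, 2.23, 2.48 and 2.43 in D-2, 2.83, 2.14 and 2.56 in DP-3, 7.1, 6.53 and 6.03 in DP-3 day 1 and 6.77, 4.39 and 6.5 in D-3. It fell in D-2 against FIT (-1.02 ± 0.14, adjusted p = 0.00343), lost without D-2 replicate 1 or FIT replicate 2 by fold alone (log2 -0.97 and -0.93, adjusted p at most 0.0215), and in DP-3 against day 1 (-1.11 ± 0.14, adjusted p = 0.00337), lost without DP-3 replicate 2 by fold alone (log2 -0.996, adjusted p at most 0.0203). It was higher in D-3 than in D-2 (1.05 ± 0.18, adjusted p = 0.00604), lost without D-3 replicate 1 by fold alone (log2 0.98, adjusted p at most 0.0282).

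ARSA, which desulfates sulfatide, showed the same low D-2 level with 6.06, 4.88 and 6.18 FPKM in FIT, 1.92, 2.19 and 2.11 in D-2, 2.79, 2.44 and 3.06 in DP-3, 6.03, 5.79 and 7.11 in DP-3 day 1 and 4.83, 4.45 and 5.19 in D-3. Its fall in D-2 (-1.30 ± 0.14, adjusted p = 0.00208) was kept in all 6 fits. ARSG, another heparan sulfatase, had 0.216, 0.282 and 0.243 FPKM in D-2 and 1.58, 1.03 and 1.07 in D-3 and was upregulated in D-3 (2.06 ± 0.27, adjusted p = 0.0027), also kept in all 6. ARSB, the sulfatase of dermatan and chondroitin sulfate, went the opposite way, with 2.07, 2.01 and 2.13 FPKM in FIT, 3.25, 3.19 and 3.48 in D-2, 3.28, 3.54 and 3.37 in DP-3 and 1.1, 2.16 and 1.51 in D-3. It was lower in D-3 than in D-2 (-1.31 ± 0.24, adjusted p = 0.00735), kept in all 6 fits. IDS, which removes sulfate from iduronate, spread widely within groups, with 3.41 to 27.2 FPKM in IT and 2.94 to 16 in D-3, and passed the test in no comparison.

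PSAP, the precursor of the saposins that present sphingolipids to their hydrolases, had the highest FPKM of all members in each of the 18 libraries. Its values were 238, 229.6 and 251 FPKM in FIT, 502, 298 and 574 in IT, 164, 166 and 160.3 in D-2, 189.5, 210.3 and 143 in DP-3, 388, 382 and 386 in DP-3 day 1 and 500.2, 389 and 463 in D-3. The 9 libraries of IT, D-3 and DP-3 day 1 were above the other 9. The change against D-2 made PSAP a DEG (1.21 ± 0.12, adjusted p = 0.0016), kept in all 6 fits, and the one against FIT was under 2-fold (0.85 ± 0.16, adjusted p = 0.0193). PSAP was lower in D-2 than in FIT (-0.40 ± 0.085, adjusted p = 0.0139) and in DP-3 than on day 1 (-0.83 ± 0.12, adjusted p = 0.00558), both under 2-fold. PLA2G15, a lysosomal phospholipase, had 2.01, 2.08 and 1.57 FPKM in FIT and 6.93, 4.65 and 2.16 in D-2. It was called in D-2 (1.42 ± 0.39, adjusted p = 0.0325), and D-2 replicate 3 lay just above the FIT libraries. The call was lost without D-2 replicates 1 and 2 or FIT replicates 1, 2 and 3 (highest adjusted p 0.0995). GM2A, the activator for GM2, and ASAH1, the acid ceramidase, rose by less than 2-fold in DP-3 against FIT (0.69 ± 0.16, adjusted p = 0.0412 and 0.73 ± 0.16, adjusted p = 0.0371). SMPD1, the acid sphingomyelinase, and LIPA, the acid lipase, were DEGs in no comparison.

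Of the nucleases and phosphatases, DNASE2, which digests DNA in lysosomes, had 17.9, 16.2 and 18.6 FPKM in FIT, 17.4, 18.3 and 16.9 in D-2, 19.3, 20.2 and 16 in DP-3, 30.0, 30.4 and 33.5 in DP-3 day 1 and 41.9, 32.3 and 36.1 in D-3. D-3 was a DEG against FIT just over 2-fold (1.01 ± 0.15, adjusted p = 0.00983), lost without D-3 replicates 1 and 3 or FIT replicates 1 and 2 (highest adjusted p 0.0529), in all but D-3 replicate 3 by fold alone. ACP5, tartrate-resistant acid phosphatase, the classic stain for osteoclasts, had 3.01, 2.11 and 0.975 FPKM in FIT, 2.17, 1.49 and 3.2 in IT, 1.3, 1.14 and 1.11 in D-2, 0.829, 0.912 and 0.757 in DP-3, 2.75, 2.42 and 2.83 in DP-3 day 1 and 2.14, 3.57 and 1.79 in D-3. The 3 DP-3 libraries were the lowest of the 18, with a log2 change against day 1 of -1.40 ± 0.18, adjusted p = 0.00359, kept in all 6 fits. With edgeR no comparison with FIT called ACP5, while DP-3 against FIT (-1.15, adjusted p = 0.116) was called by DESeq2 (-1.16, adjusted p = 0.0292) and by the edgeR fit of all 18 libraries (-1.15, adjusted p = 0.0368).

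**Figure D3:**
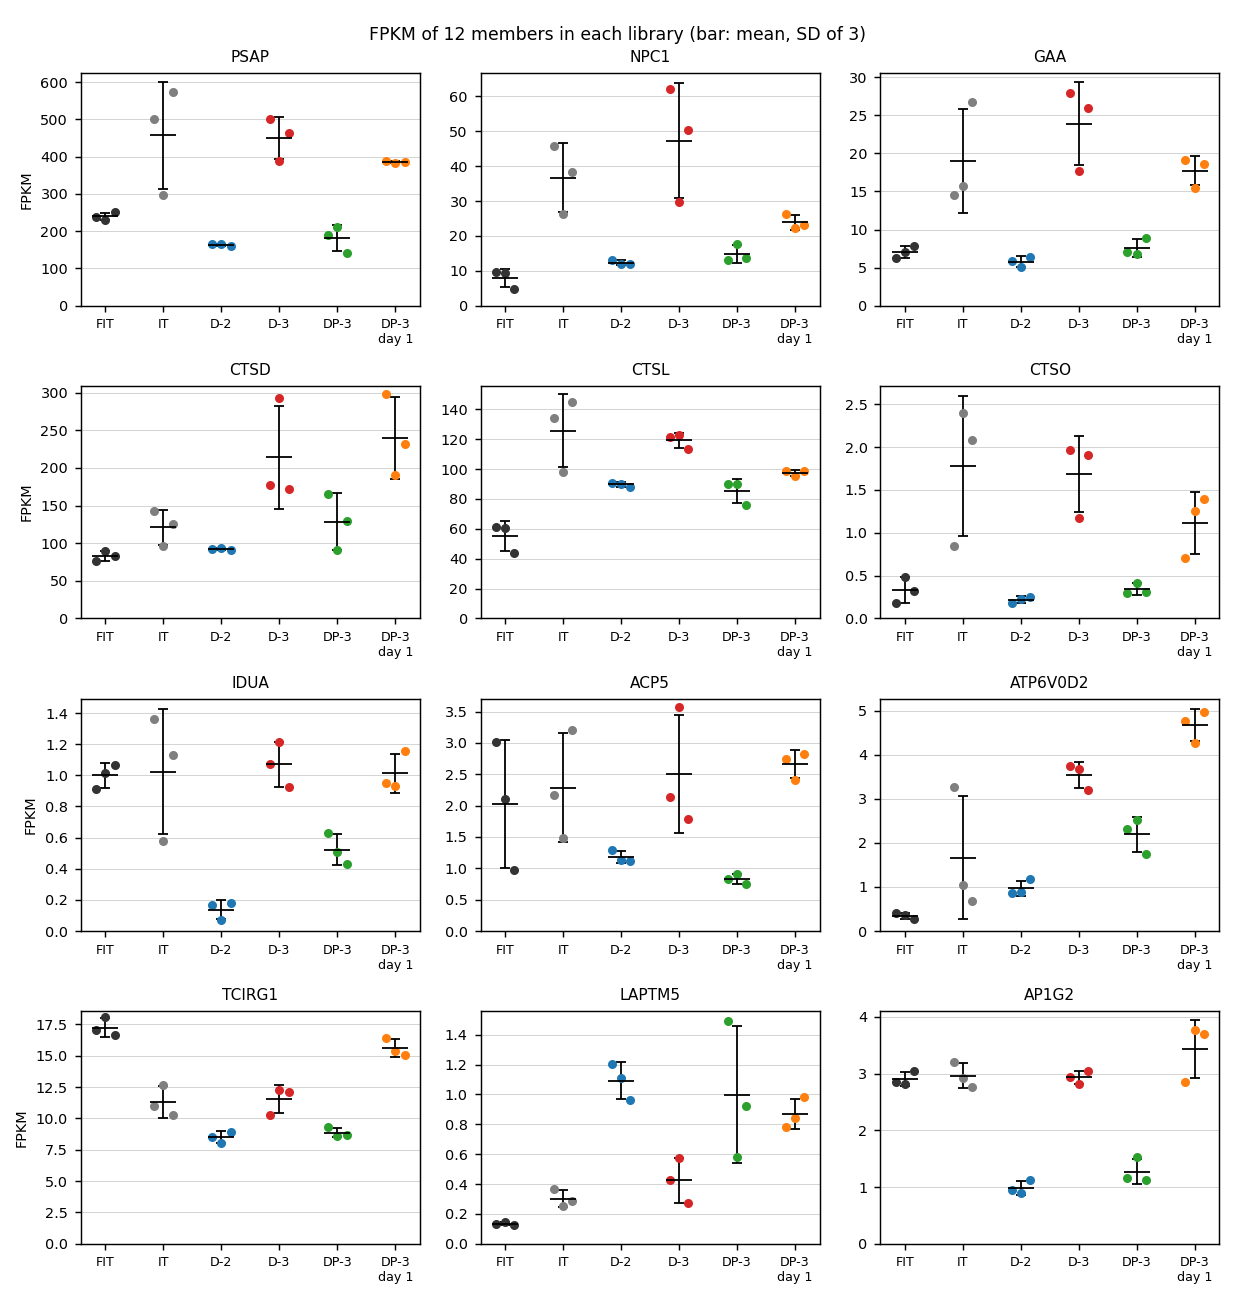
FPKM (vertical axes, from 0) of 12 members in every library, groups along the horizontal axes; points are libraries, dashes with bars the mean and SD of 3. GAA, NPC1 and PSAP are high in IT, D-3 and DP-3 day 1, ACP5 is lowest in DP-3, LAPTM5 is lowest in FIT and TCIRG1 is highest in FIT and DP-3 day 1.

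NPC1, which carries cholesterol out of the lysosome, was the membrane protein with the largest rise in D-3. It had 9.68, 9.34 and 4.89 FPKM in FIT, 45.7, 26.3 and 38.2 in IT, 13.1, 12.1 and 11.9 in D-2, 13.1, 17.7 and 13.6 in DP-3, 26.3, 22.3 and 23.2 in DP-3 day 1 and 62, 29.6 and 50.2 in D-3. The libraries of IT, D-3 and DP-3 day 1 were all above the other 9. NPC1 was upregulated in D-3 against FIT (2.50 ± 0.35, adjusted p = 0.00806) and D-2 (1.69 ± 0.25, adjusted p = 0.00389), both kept in all 6 fits, and the row overlaps RMC1 on the opposite strand over 25639 bases. NPC2, the soluble protein that hands cholesterol to NPC1, rose by under 2-fold in D-3 (0.92 ± 0.19, adjusted p = 0.0265) and in DP-3 (0.81 ± 0.18, adjusted p = 0.0356). LITAF, an endosomal membrane protein, had 2.38, 2.58 and 3.14 FPKM in FIT and 12.6, 5.29 and 6.34 in D-3, a DEG (1.52 ± 0.33, adjusted p = 0.0305) lost without D-3 replicates 1 and 3 or FIT replicates 1, 2 and 3 (highest adjusted p 0.0965).

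LAPTM5, a lysosomal membrane protein known from blood cells, was lowest in FIT with 0.13, 0.144 and 0.125 FPKM in FIT, 0.363, 0.256 and 0.285 in IT, 1.2, 1.11 and 0.96 in D-2, 1.49, 0.581 and 0.922 in DP-3, 0.783, 0.845 and 0.981 in DP-3 day 1 and 0.425, 0.574 and 0.275 in D-3. Its D-2 value (3.13 ± 0.29, adjusted p = 0.00184) was kept in all 6 fits, and its DP-3 value (2.98 ± 0.46, adjusted p = 0.0164) was lost without DP-3 replicates 1 and 3 or FIT replicates 1 and 2 (highest adjusted p 0.0702). It was lower in D-3 than in D-2 (-1.60 ± 0.34, adjusted p = 0.0113), also kept in all 6. SLC11A1, a metal transporter of phagosomes, was below 0.2 FPKM everywhere. It was called lower in DP-3 than on day 1 (-1.94 ± 0.51, adjusted p = 0.0343), where its estimated counts were 36, 18 and 9 against 69, 75 and 61. Of the 3 fits with a library left out in which it was tested, 1 kept the call. The abundant membrane proteins LAMP1, LAMP2, CD63, CD68, LAPTM4B and SCARB2, the channel MCOLN1, the cystine exporter CTNS and CLN3 were DEGs in no comparison. Of these, LAMP1 rose in D-2 (0.47 ± 0.12, adjusted p = 0.0255) and LAPTM4B in D-2 (0.89 ± 0.13, adjusted p = 0.00393) and then in DP-3 (0.69 ± 0.16, adjusted p = 0.0446), all under 2-fold. LAMP3, an inducible relative of LAMP1, was at most 0.263 FPKM.

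CD68, LAPTM5, CTSS, ACP5, CTSK and ATP6V0D2 are also known as macrophage or osteoclast genes, so markers of those cells were read beside them. Of 14 macrophage markers, PTPRC was at most 0.0625 FPKM, AIF1 0.0641, C1QA 0.123 and CD14 0.254 in any library. The list summed to 0.920 to 1.67 FPKM in FIT, 1.59 to 2.70 in IT, 2.24 to 2.46 in D-2, 1.69 to 1.99 in DP-3, 2.21 to 3.38 in DP-3 day 1 and 3.57 to 4.55 in D-3. CSF1R reached 2.35 FPKM and LYZ 2.02, and of this list CSF1R was upregulated in D-2 against FIT (1.51 ± 0.18, adjusted p = 0.00268), where LAPTM5 was too, CD163 and FCER1G in D-3 against FIT, and ITGAM and CD163 in D-3 against D-2. The deposited rows are human genes, and how reads of mouse origin were handled is not given in the sources used here. Of 8 osteoclast markers, CALCR, OCSTAMP and NFATC1 were at most 0.0299, 0.0763 and 0.0885 FPKM, and the list summed to 20.0 to 33.4 FPKM in FIT and 15.0 to 37.8 elsewhere, mostly ITGB3. TNFRSF11A was a DEG upregulated in D-2 against FIT and downregulated in D-3 against D-2, and OSCAR was upregulated in D-3 against D-2 and downregulated in DP-3 against day 1, as were ACP5 and CTSK in the latter. Of the other lists, 8 endothelial markers summed to 3.92 to 6.08 FPKM in FIT, 4.31 to 6.59 in IT and 1.28 to 2.47 elsewhere, and 8 fibroblast markers to 28.7 to 39.9 in FIT and 9.31 to 9.80 in D-3. Muscle markers reached 5.23 FPKM in a FIT library and adipocyte markers 8.71 in a DP-3 library. Their part in the members' differences was not tested.

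In D-2 against FIT 9 of 21 V-ATPase rows were higher (against 16% of all genes) and 2 lower (against 14.9%) at any fold, or 4 and 3 on log2(FPKM + 0.1) (against 11.6% and 19.3%), and 1 of them reached 2-fold. The most abundant were ATP6V0C, the ring subunit that carries the proton, at 57.4 to 83.6 FPKM in FIT, 71.4 to 100.5 in IT, 82.5 to 89.5 in D-2, 57.9 to 137 in DP-3, 89.5 to 100.2 in DP-3 day 1 and 72.4 to 80.4 in D-3, and ATP6V1F, ATP6V0E1 and ATP6V1G1, each between 31.4 and 77.1 FPKM. The catalytic subunit ATP6V1A and its nucleotide-binding partner ATP6V1B2 were DEGs in no comparison, although ATP6V1B2 was higher than in FIT by under 2-fold in D-2 (0.39 ± 0.097, adjusted p = 0.0226), D-3 (0.73 ± 0.14, adjusted p = 0.0206) and DP-3 (0.60 ± 0.13, adjusted p = 0.0337). ATP6V1B1, the kidney form, and ATP6V1G3 were near 0.

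ATP6V0D2, the d subunit best known from osteoclasts, was the member called in the most comparisons. It had 0.41, 0.361 and 0.269 FPKM in FIT, 3.28, 1.03 and 0.689 in IT, 0.864, 0.885 and 1.17 in D-2, 2.32, 2.51 and 1.75 in DP-3, 4.77, 4.27 and 4.97 in DP-3 day 1 and 3.74, 3.67 and 3.19 in D-3. Each other library was above every FIT library, and DP-3 day 1 was the highest group. It was upregulated against FIT in D-2 (1.63 ± 0.31, adjusted p = 0.00932), D-3 (3.27 ± 0.32, adjusted p = 0.00238) and DP-3 (2.76 ± 0.32, adjusted p = 0.00792), and in D-3 against D-2 (1.60 ± 0.21, adjusted p = 0.0027), each kept in all 6 fits. In DP-3 against D-2 it was the single member called (1.14 ± 0.22, adjusted p = 0.0491), lost without DP-3 replicates 1 and 2 or D-2 replicates 1, 2 and 3 (highest adjusted p 0.186). Its common form ATP6V0D1 kept within 8.97 to 10.6 FPKM in FIT, 11 to 11.9 in D-2 and 6.32 to 12.8 in D-3.

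The a subunits, of which a pump holds 1, took different courses. TCIRG1, the a3 form of osteoclasts, had 17.1, 18.1 and 16.6 FPKM in FIT, 11, 12.7 and 10.2 in IT, 8.53, 8.01 and 8.95 in D-2, 9.29, 8.59 and 8.71 in DP-3, 16.4, 15.4 and 15 in DP-3 day 1 and 10.3, 12.3 and 12.1 in D-3. All IT, DP-3, D-2 and D-3 libraries were below FIT. Its decreases were under 2-fold in D-2 (-0.87 ± 0.10, adjusted p = 0.00248), D-3 (-0.64 ± 0.15, adjusted p = 0.0392) and DP-3 (-0.83 ± 0.13, adjusted p = 0.0164), and also against day 1 (-0.55 ± 0.088, adjusted p = 0.00701), so that none was a DEG. ATP6V0A1, the form of neurons and many other cells, was lower in D-2 (-0.72 ± 0.18, adjusted p = 0.0231), also under 2-fold. ATP6V0A2 and ATP6V0A4 did not pass the test in any comparison. ATP6V1C2, an alternative C subunit, had 1.84, 0.051 and 0.06 FPKM in FIT, 0.0597, 2.38 and 0.101 in IT, 0.0739, 0.0519 and 0.0616 in D-2, 0.0534, 0.0519 and 0.0188 in DP-3, 1.11, 2.33 and 0.13 in DP-3 day 1 and 0.144, 0.0614 and 0.0493 in D-3. It was read above 1 FPKM in 4 libraries of 3 groups and was at most 0.144 in the others. Its call in DP-3 against day 1 (-4.51 ± 1.01, adjusted p = 0.0204) was lost in all 3 fits with a library left out in which it was tested.

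**Figure D4:**
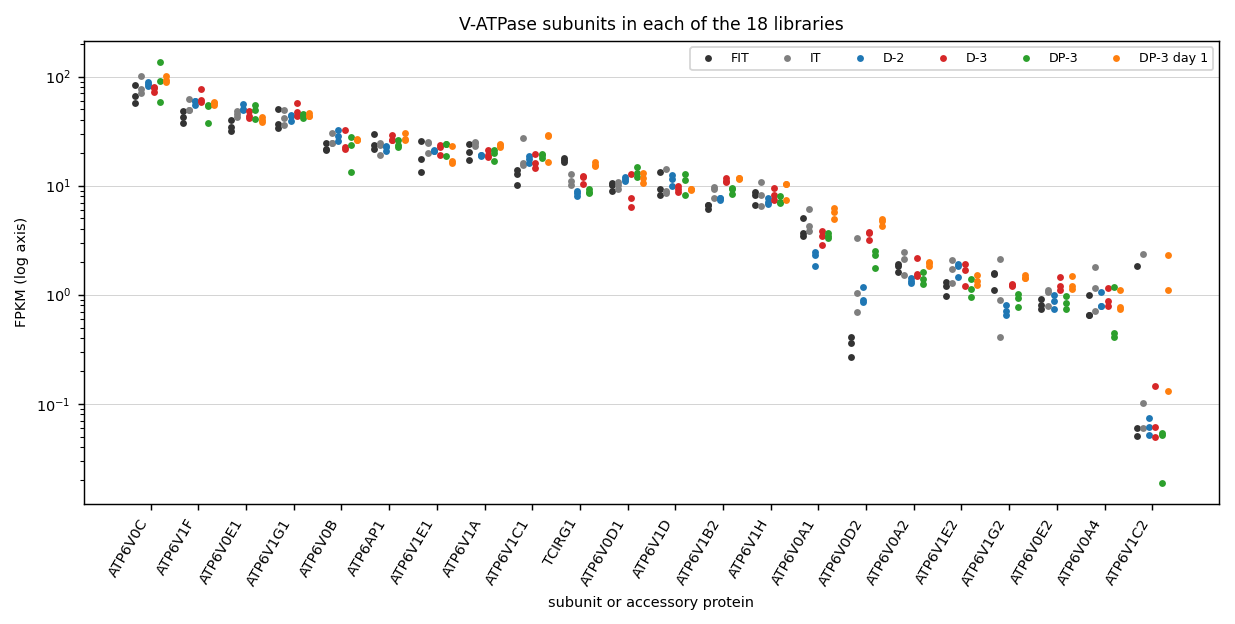
FPKM on a log axis of the 22 V-ATPase rows that reached 0.5 FPKM in a library, 1 point per library, coloured by group, ordered by mean level. The groups overlap for most subunits, FIT lies apart at the bottom for ATP6V0D2, FIT and DP-3 day 1 lie at the top for TCIRG1, and ATP6V1C2 splits within groups.

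Of 9 sorting genes, 4 were higher (against 16% of all genes) and 2 lower (against 14.9%) in D-2 against FIT at any fold. On log2(FPKM + 0.1) 2 were higher (against 11.6%) and 2 lower (against 19.3%). In D-3 against D-2, 2 were higher (against 19.2%) and 3 lower (against 16.3%). On log2(FPKM + 0.1) these were 3 (against 28.2%) and 0 (against 8.74%). GNPTAB was the one DEG among the sorting genes in the comparisons made. GNPTAB, which adds the mannose 6-phosphate tag, had 3.55, 3.3 and 3.09 FPKM in FIT, 4.77, 5.28 and 15.5 in IT and 8.95, 4.85 and 9.07 in D-3 and rose in D-3 (1.14 ± 0.25, adjusted p = 0.0303), lost without D-3 replicates 1 and 3 or FIT replicates 1, 2 and 3 (highest adjusted p 0.124). IT replicate 3 stood at 15.5 FPKM, well above its other libraries. The tag receptors M6PR and IGF2R and the sorting receptor SORT1 were DEGs in no comparison, with M6PR and SORT1 lower in D-3 than in D-2 (-0.60 ± 0.16, adjusted p = 0.0262 and -0.77 ± 0.18, adjusted p = 0.0175). In FPKM too, all D-3 libraries were below all D-2 libraries for both, but on log2(FPKM + 0.1) neither passed the limma test.

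AP1G2, a gamma subunit of the AP-1 adaptor of the Golgi and endosomes, was the clathrin-side member with the most calls. It stood at 2.86, 2.82 and 3.05 FPKM in FIT, 3.21, 2.92 and 2.77 in IT, 0.946, 0.891 and 1.12 in D-2, 1.16, 1.52 and 1.13 in DP-3, 2.85, 3.76 and 3.7 in DP-3 day 1 and 2.95, 2.81 and 3.04 in D-3. D-2 and DP-3 held every value below 2 FPKM. It was downregulated in D-2 against FIT (-1.40 ± 0.15, adjusted p = 0.00221) and in DP-3 against day 1 (-1.16 ± 0.17, adjusted p = 0.00508), and upregulated in D-3 against D-2 (1.31 ± 0.15, adjusted p = 0.00213), each kept in all 6 fits. In DP-3 against FIT (-1.06 ± 0.18, adjusted p = 0.0216) it was lost without DP-3 replicates 1, 2 and 3 or FIT replicates 1 and 2 (highest adjusted p 0.0825). The row overlaps THTPA on the opposite strand over 707 bases and AL135999 over 6974. AP3B2, the neuronal AP-3 subunit, and AP4S1 were at most 0.301 and 1.04 FPKM. AP3B2 was called lower in DP-3 than on day 1 (-1.67 ± 0.48, adjusted p = 0.0462), lost in the 3 fits in which it was tested. AP4S1 was called lower in D-3 than in D-2 (-1.28 ± 0.41, adjusted p = 0.0469), lost without D-3 replicates 1 and 3 or D-2 replicates 1, 2 and 3 (highest adjusted p 0.152). Clathrin heavy chain CLTC and the light chains CLTA and CLTB were higher in DP-3 than on day 1 on scaled counts (0.41 ± 0.09, adjusted p = 0.0204, 0.37 ± 0.08, adjusted p = 0.0196 and 0.55 ± 0.14, adjusted p = 0.0282), all under 2-fold, but their FPKM overlapped between the days.

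The remaining 4 rows carry an ATP6V name without being known subunits. ATP6V1B1-AS1, an antisense RNA, had 0.216, 0.866 and 0.356 FPKM in FIT, 2, 2.41 and 1 in IT, 4.36, 4.32 and 4.68 in D-2, 2.85, 3.49 and 3.89 in DP-3, 2.41, 3.88 and 3.16 in DP-3 day 1 and 1.75, 3.79 and 2.49 in D-3. It was upregulated in D-2 (3.29 ± 0.53, adjusted p = 0.00545), kept in all 6 fits, and in DP-3 (2.88 ± 0.56, adjusted p = 0.0281), lost without DP-3 replicates 1, 2 and 3 or FIT replicate 1 (highest adjusted p 0.0768). It shares 6794 bases with ATP6V1B1 and VAX2 on the other strand. ATP6V0E2-AS1 had estimated counts of 0, 4 and 0 in FIT and 70 to 77 in D-3 and 30 to 90 in DP-3. It was called in both (adjusted p = 0.0225 and 0.0364), and no fold is given against so few counts. Every FIT library was below the 0.1 FPKM minimum, so that it entered these tests only through its higher group. The readthrough ATP6V1G2-DDX39B shares its exons with other rows, and neither it nor ATP6V1FNB was a DEG.

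**Figure D5:**
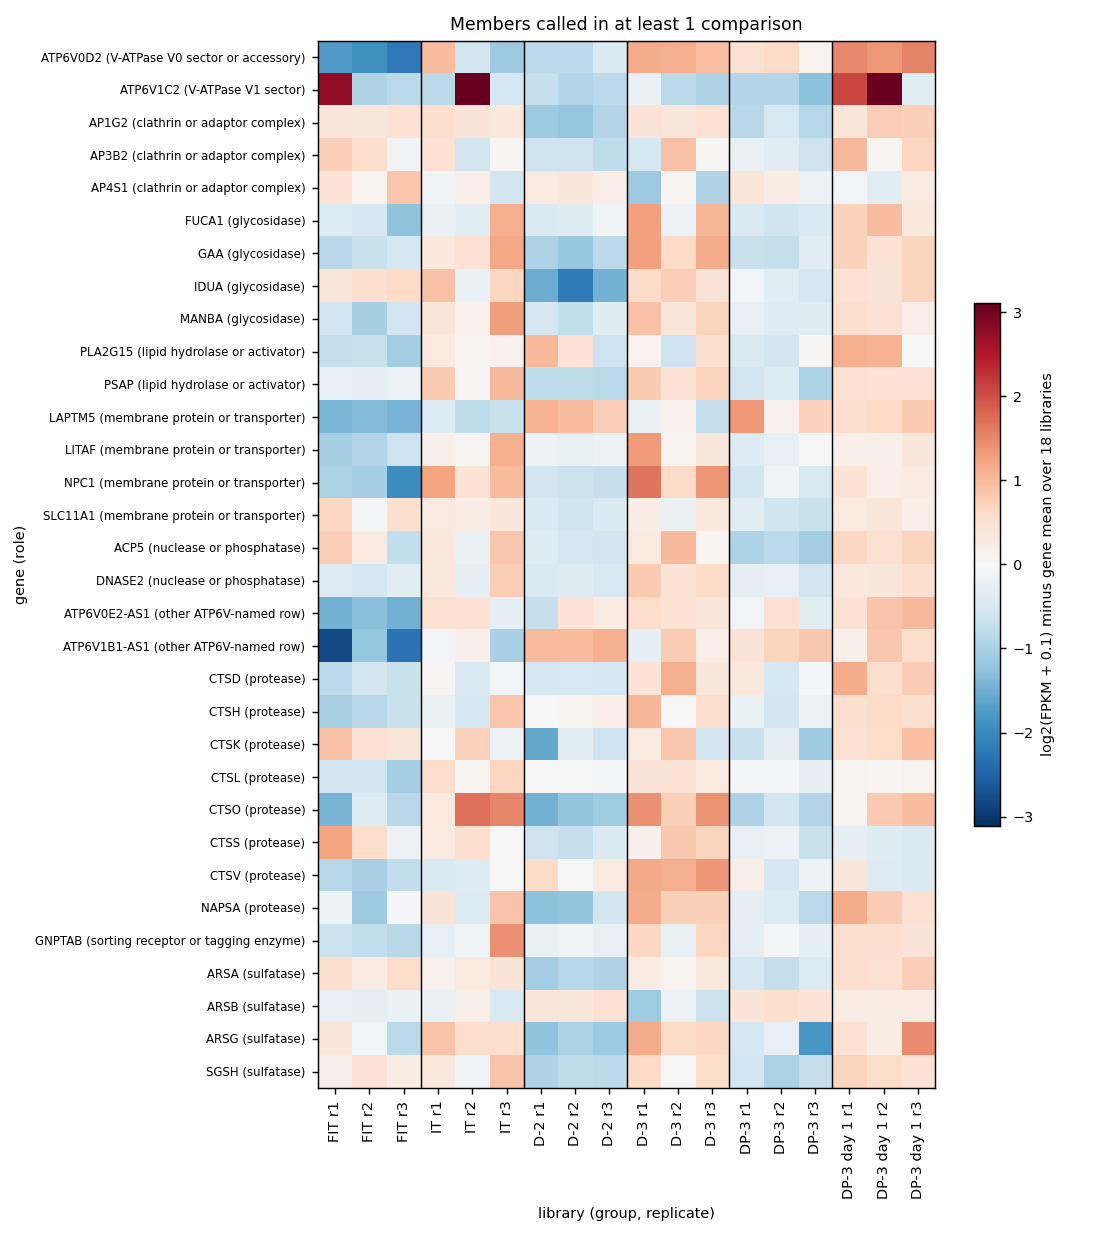
Log2 levels of 32 of the members that were DEGs in at least 1 comparison (rows, with role) in the 18 libraries (columns); colour is log2(FPKM + 0.1) minus the gene's mean over all libraries, red above and blue below. FIT is blue for ATP6V0D2, ATP6V1B1-AS1 and NPC1, D-2 is blue for IDUA, AP1G2 and ARSG, and FIT replicate 1, IT replicate 2 and DP-3 day 1 replicates 1 and 2 are red for ATP6V1C2.

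Tumor tissue kept in culture, IT against FIT, gave 0 DEGs among 128 members and 0% of all genes with edgeR. Unadjusted p was below 0.05 for 37 members (28.9%, against 12.7% of all genes). The 3 IT libraries were all above the 3 FIT libraries for 45 members (35.2%, against 11.1%) and all below for 5 (3.91%, against 9.49%). The log2 change was above 0 for 102 members, with a median of 0.30 beside 0.01 for all genes. DESeq2 called 10 of 128 members, all upregulated, beside 435 up and 226 down of all 21183 genes. The fit of all 18 libraries called 11, all upregulated, beside 402 up and 151 down of 21183. Both counts include ATP6V0E2-AS1, which was below the 0.1 FPKM minimum in every FIT library and entered only through IT. Without a filter edgeR called 2 of 135, all upregulated, beside 30 up and 23 down of 36728.

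The 6 members with the smallest p, all of which failed the edgeR test, were NPC1 (2.20 ± 0.32, adjusted p = 0.131), CTSL (1.19 ± 0.22, adjusted p = 0.16), GAA (1.43 ± 0.27, adjusted p = 0.16), PLA2G15 (1.02 ± 0.22, adjusted p = 0.195), LITAF (1.41 ± 0.31, adjusted p = 0.197) and ATP6V0E2-AS1 (adjusted p = 0.197). For ATP6V0E2-AS1 every FIT library was below the 0.1 FPKM minimum, so that it entered only through IT. NPC1 was called by DESeq2 (adjusted p = 1.12e-07), by the fit of 18 libraries (adjusted p = 0.000652) and without the filter (adjusted p = 0.0138). PLA2G15 was at 2.01, 2.08 and 1.57 FPKM in FIT and 4.22, 3.61 and 3.74 in IT and PSAP at 238, 229.6 and 251 FPKM in FIT and 502, 298 and 574 in IT. IT replicate 2 was the lowest of its group for PSAP, NPC1 and CTSD, and IT replicate 3 the highest for CTSB and GNPTAB.

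The regulators of lysosomal genes were read as a list of 27 with the mTORC1 machinery that sits on the lysosome. TFE3 was the most abundant, at 18.5 to 20.9 FPKM in FIT, 18.1 to 19.7 in IT, 17.9 to 19.3 in D-2, 19.2 to 20.5 in DP-3, 22.7 to 23.4 in DP-3 day 1 and 21.1 to 23.3 in D-3, and was a DEG in no comparison. TFEB had 0.455, 1.03 and 0.744 FPKM in FIT, 0.716, 1.25 and 1.25 in IT, 0.729, 0.941 and 0.955 in D-2, 0.713, 0.716 and 0.591 in DP-3, 1.56, 1.44 and 1.54 in DP-3 day 1 and 1.87, 1.22 and 1.54 in D-3. Its log2 change in DP-3 against day 1 was -0.90 ± 0.17, adjusted p = 0.0106, under 2-fold, and in D-3 against FIT 0.97 ± 0.37, adjusted p = 0.154, which failed the test. MITF had 0.264, 0.266 and 0.809 FPKM in FIT, 1.5, 1.35 and 1.45 in D-2 and 1.97, 1.42 and 1.6 in D-3 and rose in D-2 (1.87 ± 0.45, adjusted p = 0.0198) and then in D-3 (1.88 ± 0.46, adjusted p = 0.0443). TFEC, at most 0.505 FPKM, rose in D-3 against D-2 (1.24 ± 0.28, adjusted p = 0.015) and fell in DP-3 against day 1 (-1.50 ± 0.41, adjusted p = 0.0379). In D-3 against FIT 2 of the 27 tested were upregulated, RRAGA and MITF (against 4.29% of all genes), and in D-3 against D-2 3 were upregulated (RRAGA, RRAGD and TFEC, against 14.6%) and RPTOR was downregulated (against 3.95%).

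Neighbouring lists of genes that are no members were read in the same fits. Of 36 autophagy genes tested in D-3 against D-2, 4 (against 14.6% of all genes), namely WIPI1, OPTN, GABARAPL1 and SQSTM1, were upregulated and 0 downregulated, with a list median of 0.11, as for all genes. In DP-3 against day 1 GABARAPL1, SQSTM1 and ULK1 were downregulated (3 of 36, against 5.76% of all genes) and 0 upregulated. SQSTM1, the receptor that delivers cargo to autophagosomes, had 63.2, 44 and 40.6 FPKM in FIT, 162, 70.9 and 138 in IT, 45, 47.8 and 45.9 in D-2, 92.8, 82.5 and 69.6 in DP-3, 263, 276 and 258 in DP-3 day 1 and 229.9, 149 and 159 in D-3, and like GAA was higher in D-3 than in D-2 in every library. Of 28 genes of late endosomes and lysosome fusion, FIG4, VAMP8 and RILP were upregulated in D-3 against D-2 (3 of 28, against 14.6% of all genes). Of 29 other lysosomal proteins, 5 of 26 tested were upregulated in D-3 against FIT (RNASET2, GPNMB, SLC15A4, TMEM192 and SLC29A3), against 4.29% of all genes, and 0 downregulated, against 2.17%. GPNMB, a membrane glycoprotein known to rise when lysosomes are stressed, had 3.42, 0.94 and 0.931 FPKM in FIT, 6.62, 2.7 and 11.9 in IT, 2.28, 2.28 and 2.28 in D-2, 4.45, 6.89 and 5.39 in DP-3, 12.7, 11.3 and 11.9 in DP-3 day 1 and 20.2, 12.6 and 16.8 in D-3.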

How the data were processed

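Values of 18 libraries in 6 groups were used, grouped by their deposited labels. Poly(A) RNA was sequenced in a strand-marking protocol. The submitters' processing notes name Cutadapt 1.9, HISAT2 2.0.4 and StringTie 1.3.4d, and also DESeq2 and edgeR. The deposited FPKM are the authors' StringTie values, scaled per length and library. The deposited estimated counts are whole numbers whose origin is not given in the sources used here, nor is the build. All 138 member positions overlapped GENCODE release 29 on GRCh38. 0 columns of per-sample values were left unused.

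Estimated counts were tested with edgeR 4.0.16 (TMM, glmQLFit, glmQLFTest) in R 4.3.3, on genes with at least 0.1 FPKM in at least 3 of the 6 libraries of a comparison. SE was the absolute log2 fold change over the square root of F, and values after ± beside a fold change are SE. Between 10 and 15 members failed the filter in a comparison, and a member can pass through its higher group alone. DESeq2 1.42.0 and limma 3.58.1 on log2(FPKM + 0.1) and log2(FPKM + 1), no filter, an FPKM minimum of 1, median-of-ratios scaling, 1 fit of 18 libraries, a replicate block and each library left out were the alternatives, and with a library left out the filter was applied to the 5 others. On counts simulated for D-3 against FIT (21676 genes), edgeR recovered 100 of 100 genes changed 8-fold, and 129 of 200 in all, with 2 false calls. The changed genes were drawn from those above a minimum expected count, and all genes were given the same dispersion. The simulation therefore does not cover members of low count or of uneven spread within groups. Estimated counts total 23721666 to 79082786 per library, so precision is lowest in FIT replicate 3.

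The members and lists were chosen with earlier results of these data known. Named members were a fixed set of well-known enzymes, membrane proteins and V-ATPase genes, up to 6 DEGs each way per comparison with a mean of at least 1 FPKM in a group, the 6 smallest p where no DEG was found, and the factors TFEB, TFE3, MITF and TFEC. DEGs below that level and members such as IDS, DNASE2 and the clathrin chains, and genes of the other lists, were named after their values were seen. Some genes of the lists and rule above are not reported here. Promoters were RefSeq's. Counting error alone enters a count near 0.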

Additional observations from a re-analysis of the deposited data

How the results depend on the processing

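The number of member DEGs changed with the measure, tool, filter or libraries used, and the cause was not tested. With limma on log2(FPKM + 1), which changes both tool and measure, 3 were called in D-2 against FIT (edgeR 11), 2 in DP-3 against FIT (edgeR 6), 3 in DP-3 against day 1 (edgeR 10) and 0 in DP-3 against D-2 (edgeR 1). Over all genes it called 201 up and 704 down in D-2 against FIT (edgeR 747 and 2099). In DP-3 against FIT it called 115 and 323 (edgeR 332 and 633). In DP-3 against day 1 it called 68 and 426 (edgeR 375 and 1196), and against D-2 36 and 21 (edgeR 134 and 59). On log2(FPKM + 0.1), 22 were called in D-3 against D-2 (edgeR 14) and 0 in DP-3 against D-2. Over all genes 3973 were up and 389 down in the former (edgeR 2946 and 800), and 103 and 36 in the latter. DESeq2 called 10 in DP-3 against FIT, 10 in IT against FIT (edgeR 0) and 2 in DP-3 against D-2. Over all genes it called 580 up and 1314 down, 435 and 226 (edgeR 0), and 509 and 168 in these comparisons. The fit of all 18 libraries called 11 in DP-3 against FIT, 11 in IT against FIT and 6 in DP-3 against day 1. Over all genes it called 543 up and 1076 down, 402 and 151, and 328 and 921 in these. Without a filter, 2 were called in IT against FIT, 6 in DP-3 against day 1 and 0 in DP-3 against D-2, and with an FPKM minimum of 1, 6 in DP-3 against day 1. Over all genes 30 were up and 23 down, 470 and 1502, 100 and 51, and 202 and 698 in the same order. Median-of-ratios scaling moved no count by over 1.5 times. With each library left out, counts ran from 7 to 11 in D-2 against FIT, 4 to 17 in D-3 against FIT, 1 to 10 in DP-3 against FIT, 0 to 0 in IT against FIT, 4 to 9 in DP-3 against day 1, 13 to 20 in D-3 against D-2 and 0 to 1 in DP-3 against D-2. Over all genes, 139 to 983 were then up and 101 to 583 down in D-3 against FIT. In DP-3 against FIT 42 to 631 were up and 48 to 807 down. In D-2 against FIT these ranges were 478 to 1004 and 1204 to 1976, and in DP-3 against day 1 262 to 368 and 481 to 1242. In D-3 against D-2 they were 1560 to 2467 and 504 to 1210, and in DP-3 against D-2 1 to 136 and 2 to 87. Same-numbered libraries deviated together weakly (correlations at most 0.0808). That cannot tell whether same-numbered libraries share a tumor or culture, which the labels do not say. With the replicate number as a block, 9 were called in D-3 against FIT, 2 in DP-3 against FIT, 6 in DP-3 against day 1 and 0 in DP-3 against D-2. Over all genes 556 were up and 348 down, 68 and 96, 287 and 651, and 9 and 6 in the same order. Of single members' results, no direction reversed; 384 kept their side of the threshold under other settings, 80 lost and 13 gained a call, and 95 of 348 were lost with a library left out. FIT replicate 3, the shallowest library, limits what low members can show.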
